A study of Homo sapiens with 9 samples.

Results

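The 42 autophagy and lysosome genes described here were taken from a list of symbols drawn up with earlier results of these data known, and all 42 were found among the 41041 gene identifiers of the expression table. They comprise 23 genes of the autophagy machinery and its cargo receptors, 3 transcription factors of the MiT/TFE family, and 16 genes of lysosomal membrane proteins, lumenal enzymes and the proton pump. Autophagy encloses cytoplasmic cargo in a double membrane: a kinase complex starts the process, a lipid kinase complex marks the membrane, and a conjugation system attaches ATG8 proteins to it. The closed vesicle fuses with the lysosome, an organelle acidified by the V-ATPase, where cathepsins and other hydrolases degrade the cargo. When the kinase complex mTORC1 is active it holds back the ULK1 kinase and keeps TFEB and TFE3, which switch on lysosomal genes, in the cytoplasm.

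Poly(A) RNA of SW480, a line of human colorectal cancer cells, was sequenced in 9 libraries. All cells were cultured at 1% oxygen, and RNA was taken after 48 h. Cells of the first group (SFN+5-FU) received sulforaphane, an isothiocyanate from cruciferous vegetables, together with the pyrimidine analogue 5-fluorouracil. Cells of the next (SFN) received sulforaphane at 25 µM, and hypoxic cells without either compound were the control. Each group had 3 replicates. Neither the 5-FU dose nor the sulforaphane dose of the combination is stated in the labels, and cells at normal oxygen and cells on 5-FU alone were not analysed here. The series title asks about sulforaphane, the PI3K/AKT/mTOR pathway and HIF-1α under hypoxia, and the mRNAs below are those of a process that mTORC1 controls. The replicates are all of a single cell line, the labels do not say whether they were separate cultures, and p-values measure the spread between these libraries.

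Levels are in FPKM, fragments scaled to transcript length and to the size of the library, and values of 3 libraries are listed in the order of replicates 1, 2 and 3. Library sums lay between 259184 and 272235 FPKM. The number of fragments behind them is unknown, so no counting error could be given. In bulk RNA of this kind, a change in the share of cells that express a gene and a change in RNA per cell cannot be told apart. Of 10 colorectal epithelial markers, 6 (EPCAM, KRT8, KRT18, KRT19, CDH1 and CDX2) were at 1 FPKM or more in all 9 libraries. The summed FPKM of the 10 was 1707 to 1722 with SFN+5-FU and 1767 to 2383 with SFN, against 2552 to 2596 in control, and the part of this difference in the results below was not tested. The library labelled SFN replicate 2 stood apart from its group: across the tested genes its log2(FPKM + 1) values correlated at 0.993 with each SFN+5-FU library and at 0.963 and 0.968 with SFN replicates 1 and 3, which correlated with each other at 0.990. For 40 of the 42 autophagy and lysosome genes this library was nearer to the SFN+5-FU mean than to the mean of the other SFN libraries, as it was for 82.6% of all tested genes. It was kept in its labelled group, and results are also given with this library left out where that changes a call, turns a called direction or moves a called value by over 1.5 times.

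A gene was tested when its mean over the 9 libraries reached 1 FPKM, and 12662 genes were tested with limma on log2(FPKM + 1). A gene was called at a Benjamini-Hochberg adjusted p of 0.05 over all tested genes, and fold changes are on this log2 scale, which understates changes of genes of low expression. Of the 42 genes, 40 were tested, and ULK2 and MITF fell below the filter. With SFN+5-FU 20 were higher and 7 lower than in control, 67.5% of the 40, against 66.2% called among all tested genes (38.3% higher and 28.0% lower). With SFN 13 were higher and 6 lower than in control, 47.5% of the 40, against 50.0% called among all tested genes (27.5% higher and 22.5% lower). CD68, counted as higher in both comparisons, passed the filter through its treated values alone. The share of called genes was thus near the background in both comparisons. The median log2 fold change of the 40 genes was 0.25 with SFN+5-FU, where that of all tested genes was 0.10, and 0.08 with SFN, where that of all tested genes was 0.05. Without SFN replicate 2 the median with SFN was -0.02, against 0.02 for all tested genes, and the 19 genes called with SFN were called again in the same direction. The counts were then 14 higher and 8 lower, against 56.9% called among all tested genes (30.0% higher and 26.9% lower). With no expression filter 8 of the 42 were higher with SFN, against 8.99% of 36755 genes. Most of those genes had a mean below 1 FPKM, while 40 of the 42 were above it, so these shares are not of like genes.

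**Figure D1:**
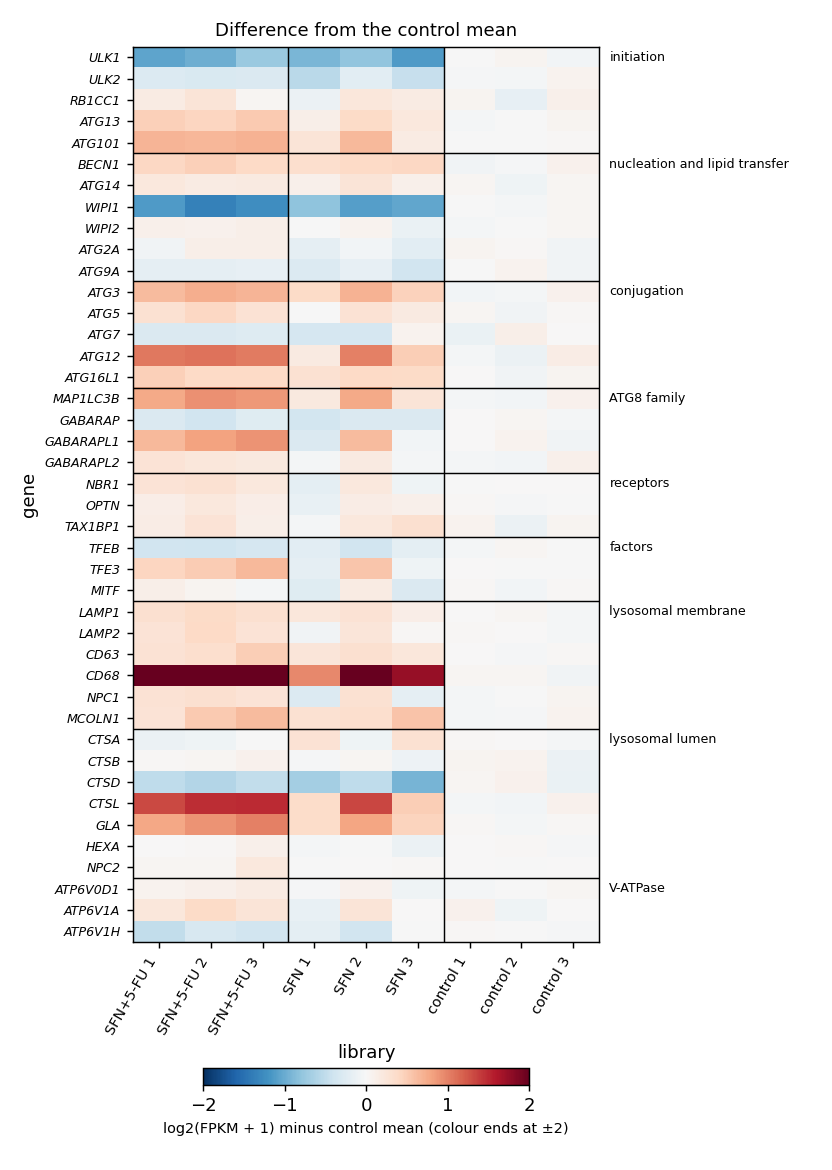
Difference of each of the 42 genes from its control mean on the log2(FPKM + 1) scale, with genes in rows grouped by role and the 9 libraries in columns (SFN+5-FU, SFN, control). ULK1, WIPI1 and CTSD are blue in all 6 treated libraries, CD68, CTSL, ATG12 and GLA are red in all 6, and SFN replicate 2 resembles the SFN+5-FU columns.

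In the initiation complex the kinase ULK1 fell after both treatments, while its partners ATG101 and ATG13 rose. ULK1, the kinase that starts autophagosome formation, was at 2.47, 2.66 and 3.30 FPKM in SFN+5-FU cells and at 2.81, 3.16 and 2.27 FPKM in SFN cells, against 6.16, 6.51 and 5.96 FPKM in control cells. All 6 treated libraries lay below the lowest control library. ULK1 fell by 0.93 with SFN+5-FU (SE 0.110, limma adjusted p = 0.000120) and by 0.95 with SFN (SE 0.110, adjusted p = 0.000180) on the log2 scale. Its paralogue ULK2 averaged 0.550 ± 0.0100 FPKM with SFN+5-FU, 0.440 ± 0.168 FPKM with SFN and 0.897 ± 0.0723 FPKM in control (SD, n = 3 each) and was too low to be tested. When all genes above 0 were tested, ULK2 had a log2 fold change of -0.29 with SFN+5-FU (adjusted p = 0.0525) and of -0.40 with SFN (adjusted p = 0.0196).

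ATG101 and ATG13, the partners that stabilise and bind ULK1, were higher after both treatments. ATG101, the most abundant mRNA of the complex, was at 44.41, 44.11 and 44.96 FPKM in SFN+5-FU cells and at 32.99, 43.47 and 31.01 FPKM in SFN cells, against 27.14, 27.22 and 27.98 FPKM in control cells. Neither treated group overlapped control, and SFN replicate 2 was the highest SFN library. ATG101 rose by 0.68 with SFN+5-FU (SE 0.108, adjusted p = 0.000565) and by 0.36 with SFN (SE 0.108, adjusted p = 0.0217, a fold change of 0.21 without SFN replicate 2). ATG13 averaged 20.1 ± 0.710 FPKM with SFN+5-FU, 17.0 ± 1.74 FPKM with SFN and 14.2 ± 0.510 FPKM in control, and rose by 0.47 with SFN+5-FU and by 0.24 with SFN. The SFN calls of both genes were lost without control replicate 1 (adjusted p = 0.0638 for ATG101 and 0.0952 for ATG13) and without control replicate 2 (0.0621 and 0.0811). RB1CC1, which encodes the scaffold FIP200, averaged 5.58 ± 0.491 FPKM with SFN+5-FU, 5.30 ± 0.767 FPKM with SFN and 4.91 ± 0.556 FPKM in control and was not called.

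Among genes of membrane nucleation and lipid transfer, WIPI1 fell furthest. WIPI1, which reads the lipid mark on the forming membrane, was at 7.07, 5.94 and 6.42 FPKM in SFN+5-FU cells and at 9.08, 7.21 and 7.59 FPKM in SFN cells, against 16.60, 16.18 and 17.17 FPKM in control cells. The treated libraries did not overlap control. WIPI1 fell by 1.24 with SFN+5-FU (SE 0.0914, adjusted p = 1.37e-05) and by 0.98 with SFN (SE 0.0914, adjusted p = 6.12e-05) on the log2 scale. Its relative WIPI2, which recruits ATG16L1, was not called, at 14.3 ± 0.130 FPKM with SFN+5-FU, 13.0 ± 0.995 FPKM with SFN and 13.3 ± 0.435 FPKM in control.

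BECN1, a subunit of the lipid kinase complex, rose by 0.43 with SFN+5-FU (adjusted p = 0.000409) and by 0.38 with SFN (adjusted p = 0.00123). Its level was 15.2 ± 0.438 FPKM with SFN+5-FU and 14.7 ± 0.476 FPKM with SFN, against 11.0 ± 0.685 FPKM in control. PSME3, which overlaps BECN1 on the opposite strand, stood at 66.8 FPKM with SFN+5-FU, 64.6 FPKM with SFN and 35.5 FPKM in control. The libraries were stranded, but the sources used here do not say whether strand was used in the FPKM estimates, and the part of the overlapping gene in the BECN1 values was not tested. ATG14, which targets that complex to autophagosomes, was not called, with log2 fold changes of 0.19 with SFN+5-FU (adjusted p = 0.0542, and 0.0184 without SFN replicate 2) and 0.16 with SFN.

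ATG9A, the lipid scramblase of the seed vesicles, had the highest mRNA level of the nucleation group. It was at 17.39, 17.33 and 17.44 FPKM in SFN+5-FU cells and at 16.12, 17.50 and 15.01 FPKM in SFN cells, against 19.55, 20.92 and 18.88 FPKM in control cells. All treated libraries were below control. AC068946.2, a gene that shares the strand and 1833 exon bases of ATG9A, averaged 4.34 FPKM with SFN+5-FU, 5.07 FPKM with SFN and 5.79 FPKM in control. Its part in the ATG9A values was not tested. ATG9A fell by 0.27 with SFN (adjusted p = 0.0102) and by 0.18 with SFN+5-FU, where the adjusted p of 0.0495 was at the threshold and the call was lost in 13 of 21 alternative settings (adjusted p up to 0.173), among them those without any 1 SFN+5-FU or control library and without SFN replicate 1 (0.0571). ATG2A, the lipid transfer protein, averaged 10.8 ± 0.878 FPKM with SFN+5-FU, 9.24 ± 0.599 FPKM with SFN and 10.3 ± 0.510 FPKM in control. It was not called in either comparison, and was past the threshold with SFN without SFN replicate 2 (-0.20, adjusted p = 0.0463). With values corrected for GC and length ATG2A was called higher with SFN+5-FU (0.37, adjusted p = 0.00208, against 0.06 uncorrected) and had a value of 0.11 with SFN (adjusted p = 0.243).

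Of the 5 genes of the conjugation system, 4 rose with SFN+5-FU (80.0%, against 38.3% higher and 28.0% lower among all tested genes). With SFN 3 rose (60.0%, against 27.5% higher and 22.5% lower), and none fell in either comparison. No test was run on this small set. ATG12, the ubiquitin-like protein that is joined to ATG5, was at 13.04, 13.34 and 12.97 FPKM in SFN+5-FU cells and at 6.68, 12.55 and 8.51 FPKM in SFN cells, against 5.61, 5.26 and 6.48 FPKM in control cells. SFN replicate 2 stood just under the SFN+5-FU libraries, and SFN replicate 1 was just above the highest control library. The mean of ATG12 with SFN+5-FU was 2.27 times that in control, a log2 fold change of 1.06 (SE 0.174, adjusted p = 0.000662). With SFN it rose by 0.56 (SE 0.174, adjusted p = 0.0246), a fold change of 0.34 without SFN replicate 2. That call was lost without control replicate 1 (adjusted p = 0.0698) or 2 (0.0811). AP3S1, which overlaps ATG12 on the opposite strand, averaged 38.4 FPKM with SFN+5-FU, 29.6 FPKM with SFN and 19.1 FPKM in control, and its part in the ATG12 values was not tested.

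ATG3, the E2-like enzyme that hands ATG8 proteins to the lipid, was the most abundant of these mRNAs. It was at 13.30, 14.22 and 13.68 FPKM in SFN+5-FU cells and at 11.01, 13.98 and 11.72 FPKM in SFN cells, against 7.89, 7.99 and 8.75 FPKM in control cells. No treated library overlapped control. ATG3 rose by 0.68 with SFN+5-FU (SE 0.0884, adjusted p = 0.000186) and by 0.52 with SFN (SE 0.0884, adjusted p = 0.00133). ATG16L1, the partner that places the ATG12–ATG5 conjugate on the membrane, rose by 0.43 with SFN+5-FU and by 0.36 with SFN, with 8.27 ± 0.264 FPKM in SFN+5-FU cells, 7.86 ± 0.330 FPKM in SFN cells and 5.90 ± 0.297 FPKM in control cells. ATG5 rose with SFN+5-FU (0.34, adjusted p = 0.00818) and had a fold change of 0.15 with SFN (adjusted p = 0.182, and 0.0381 without SFN replicate 1). ATG7, the E1-like enzyme at the head of both conjugation reactions, was not called. With SFN+5-FU its log2 fold change was -0.28 (adjusted p = 0.0603, and past the threshold at 0.0373 without SFN replicate 2 and 0.0143 without SFN replicate 3). With SFN it was -0.20 (-0.34, adjusted p = 0.0171, without SFN replicate 3). VGLL4, which overlaps ATG7 on the opposite strand, averaged 8.75 FPKM with SFN+5-FU, 9.03 FPKM with SFN and 12.2 FPKM in control. Its part in the ATG7 values was not tested.

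In the ATG8 family, the proteins that coat the autophagosome and bind cargo receptors, MAP1LC3B was higher and GABARAP lower than in control after both treatments. MAP1LC3B, the source of the LC3 marker of autophagosomes, was at 42.80, 47.91 and 46.32 FPKM in SFN+5-FU cells and at 28.48, 42.75 and 29.77 FPKM in SFN cells, against 24.13, 23.96 and 26.54 FPKM in control cells. No treated library overlapped control, and SFN replicate 2 lay just below the SFN+5-FU libraries. MAP1LC3B rose by 0.85 with SFN+5-FU (SE 0.136, adjusted p = 0.000560) and by 0.40 with SFN (SE 0.136, adjusted p = 0.0346). The fold change with SFN was 0.22 without SFN replicate 2, where the gene was still called (adjusted p = 0.0181), and the call was lost without control replicate 1 (0.0956), 2 (0.0973) or 3 (0.0504) and without SFN+5-FU replicate 3 (0.0522). Reads of MAP1LC3B may be shared with MAP1LC3B2, a near-identical copy listed at 1.46 FPKM with SFN+5-FU, 1.15 FPKM with SFN and 1.51 FPKM in control.

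GABARAPL1, a further member of the family, was at 31.31, 34.72 and 37.10 FPKM in SFN+5-FU cells and at 15.79, 30.75 and 18.76 FPKM in SFN cells, against 19.62, 20.46 and 18.52 FPKM in control cells. SFN replicates 1 and 3 lay around the lowest control library, and SFN replicate 2 was close to SFN+5-FU. GABARAPL1 rose by 0.78 with SFN+5-FU (SE 0.196, adjusted p = 0.00633). With SFN it had a value of 0.10 on that scale (adjusted p = 0.706), and without SFN replicate 2 of -0.17 (adjusted p = 0.130).

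GABARAP, the most abundant ATG8 mRNA, was at 59.54, 55.84 and 61.69 FPKM in SFN+5-FU cells and at 56.47, 59.66 and 59.70 FPKM in SFN cells, against 73.30, 75.34 and 71.15 FPKM in control cells. The treated groups did not overlap control, and SFN replicate 2 was within the range of the other treated libraries. GABARAP fell by 0.31 with SFN+5-FU (SE 0.0591, adjusted p = 0.00155) and by 0.32 with SFN (SE 0.0591, adjusted p = 0.00210). GABARAPL2 averaged 15.7 ± 0.480 FPKM with SFN+5-FU, 13.6 ± 1.36 FPKM with SFN and 13.2 ± 0.830 FPKM in control, and was called higher with SFN+5-FU (0.23, adjusted p = 0.0290), a call lost in 10 of 21 alternative settings, among them those without SFN+5-FU replicate 1 (adjusted p = 0.0905) or 2 (0.0730) and without control replicate 1 (0.0932) or 2 (0.0958). As a share of the summed FPKM of the 4 genes, GABARAP made up 38.1 ± 1.79% with SFN+5-FU and 46.4 ± 5.37% with SFN, against 56.0 ± 1.23% in control. MAP1LC3B made up 29.5 ± 1.36% with SFN+5-FU and 26.2 ± 2.31% with SFN, against 19.0 ± 1.19% in control. The sum itself was 155 ± 5.27 FPKM with SFN+5-FU, 128 ± 18.3 FPKM with SFN and 131 ± 1.38 FPKM in control (SD, n = 3 each).

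**Figure D2:**
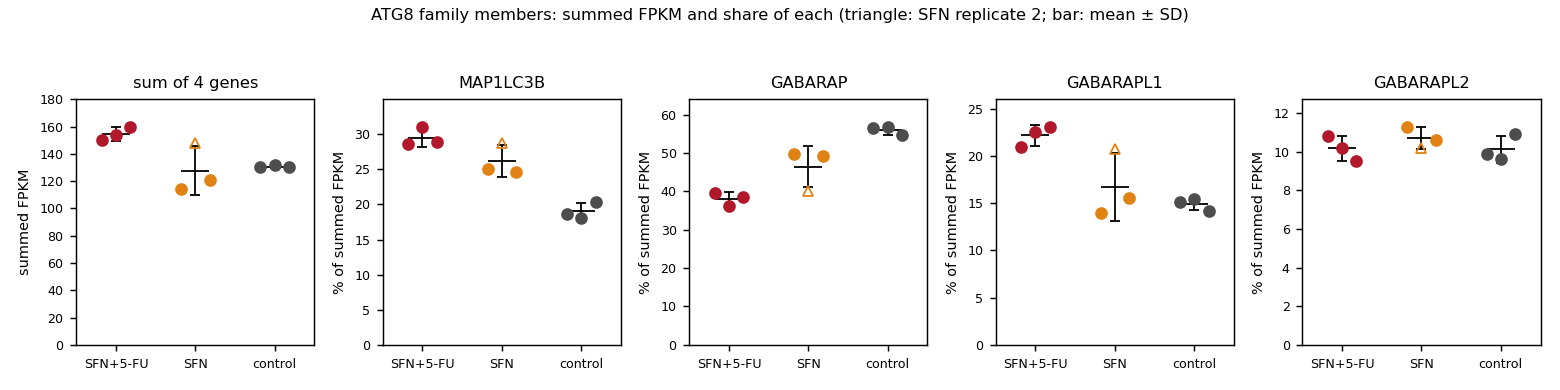
Summed FPKM of the 4 ATG8 family genes (left) and the percentage of that sum held by each gene, per library, with the mean ± SD of 3 libraries and SFN replicate 2 as a triangle. GABARAP averages 38.1% with SFN+5-FU, 46.4% with SFN and 56.0% in control, and GABARAPL2 stays between 9.49% and 11.3% in the 9 libraries.

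The 3 cargo receptors showed small differences. OPTN, a receptor for ubiquitinated mitochondria and bacteria, had the highest level, with 23.90, 25.45 and 24.07 FPKM in SFN+5-FU cells and 19.53, 24.18 and 23.53 FPKM in SFN cells, against 22.22, 21.37 and 21.77 FPKM in control cells. The SFN libraries lay on both sides of control, and OPTN was not called (0.16 with SFN+5-FU, adjusted p = 0.108, or 0.0296 without SFN replicate 1, and 0.03 with SFN). CCDC3, which overlaps OPTN on the opposite strand, averaged 4.87 FPKM with SFN+5-FU, 5.80 FPKM with SFN and 24.2 FPKM in control. Its part in the OPTN values was not tested. NBR1, a receptor for ubiquitinated protein aggregates, was called higher with SFN+5-FU (18.7 ± 0.603 FPKM, against 15.4 ± 0.0777 FPKM in control, adjusted p = 0.0372), a call lost in 11 of 21 alternative settings, and stood at 15.3 ± 2.41 FPKM with SFN. The NBR1 call was lost without any 1 of the SFN+5-FU or control libraries (adjusted p from 0.0601 to 0.105). TAX1BP1, a receptor for ubiquitinated cargo, was not called and averaged 17.3 ± 1.10 FPKM with SFN+5-FU, 17.3 ± 2.30 FPKM with SFN and 15.2 ± 1.20 FPKM in control. Without SFN replicate 1 it was called higher with SFN (0.27, adjusted p = 0.0312).

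Of the MiT/TFE factors, TFE3 made up nearly all of the mRNA, 96.1 ± 0.430% of their summed FPKM with SFN+5-FU, 95.0 ± 0.875% with SFN and 93.2 ± 0.113% in control. TFE3 was at 44.70, 47.06 and 51.92 FPKM in SFN+5-FU cells and at 28.88, 48.70 and 30.93 FPKM in SFN cells, against 33.18, 32.85 and 32.61 FPKM in control cells. SFN replicate 2 was within the SFN+5-FU range, while SFN replicates 1 and 3 were below every control library. TFE3 rose by 0.53 with SFN+5-FU (SE 0.165, adjusted p = 0.0185). The call was lost without SFN+5-FU replicate 3 (0.47, adjusted p = 0.0644), with no expression filter (adjusted p = 0.0518) and with quantile normalization (0.0668). With SFN its log2 difference was 0.10 (limma, adjusted p = 0.651), or -0.13 (adjusted p = 0.110) without SFN replicate 2.

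TFEB itself was low. It was at 0.88, 0.86 and 0.95 FPKM in SFN+5-FU cells and at 1.12, 0.88 and 1.14 FPKM in SFN cells, against 1.40, 1.54 and 1.44 FPKM in control cells. Every treated library was below control, and the gene passed the filter through its control and SFN values. With all genes above 0 in the limma fit, TFEB fell by 0.38 with SFN+5-FU (adjusted p = 0.00790) and by 0.27 with SFN (adjusted p = 0.0475, close to the threshold). In the filtered fit the adjusted p was 0.00239 with SFN+5-FU (SE 0.0780) and 0.0185 with SFN. The filtered SFN call was lost without control replicate 2 (adjusted p = 0.0671) and with values corrected for GC and length (-0.14, adjusted p = 0.173). MITF, the third factor, was at 1.12, 1.03 and 0.89 FPKM in SFN+5-FU cells and at 0.65, 1.19 and 0.59 FPKM in SFN cells, against 0.98, 0.88 and 0.98 FPKM in control cells, and was too low to be tested.

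**Figure D3:**
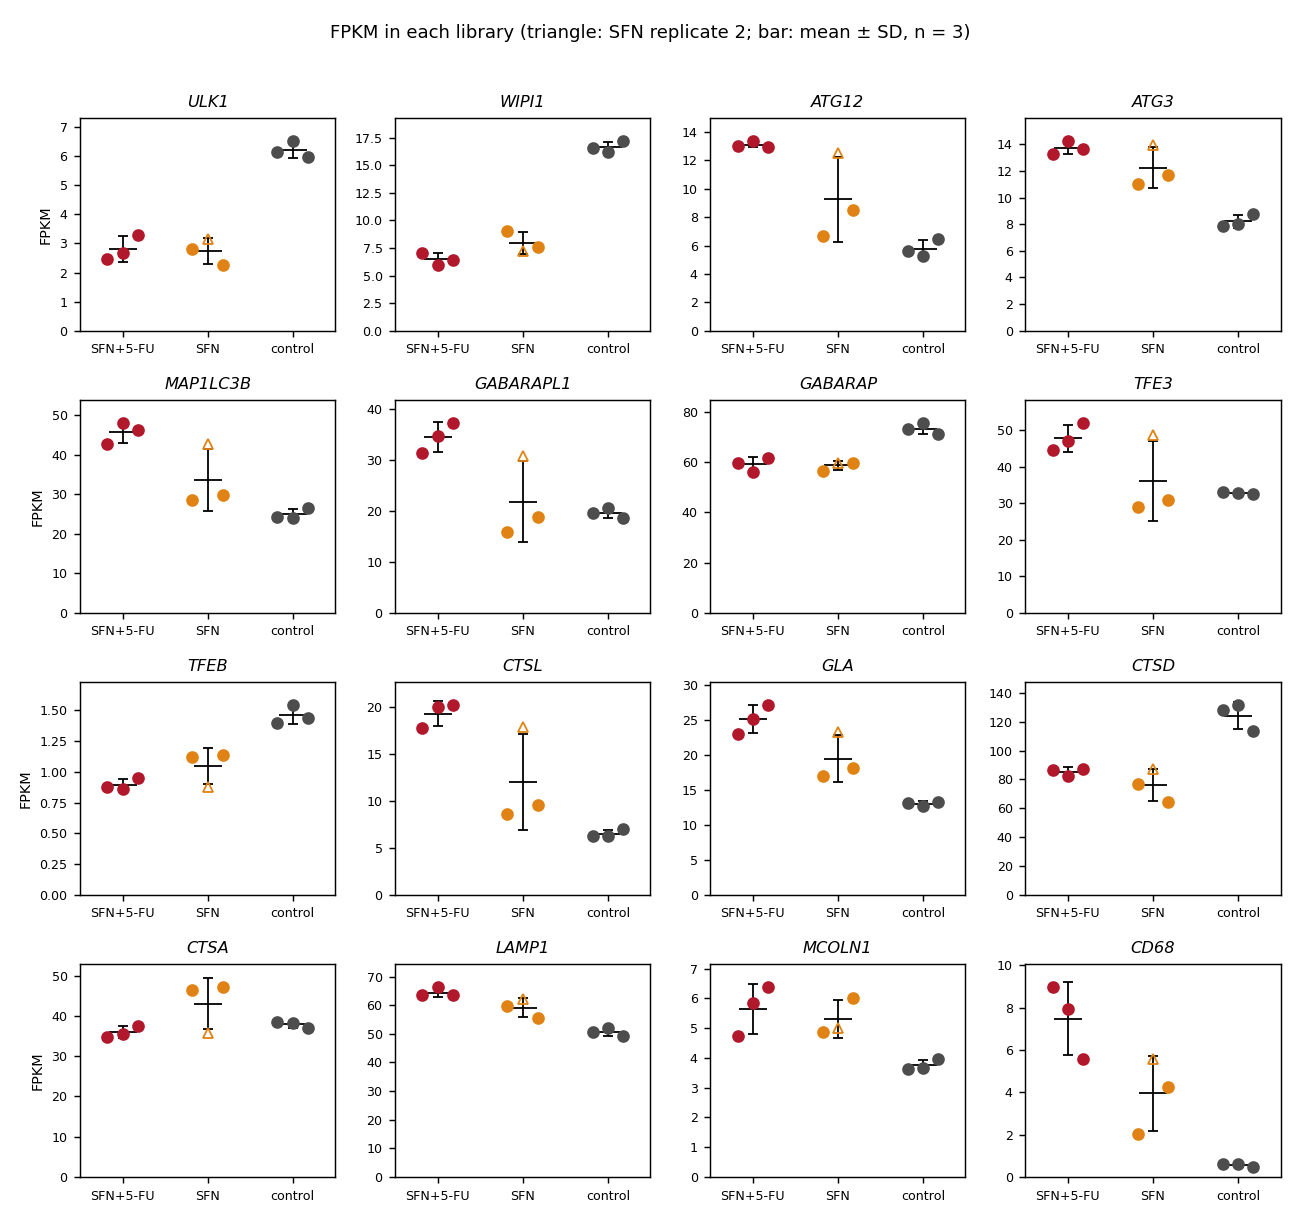
FPKM per library for 16 of the genes, with SFN+5-FU and SFN left of control, bars for the mean ± SD of 3 libraries and a triangle for SFN replicate 2. ULK1, WIPI1, GABARAP, TFEB and CTSD lie below control in all 6 treated libraries, and for ATG12, MAP1LC3B, GABARAPL1, TFE3, CTSL and GLA the triangle lies apart from the other SFN libraries.

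MiT/TFE factors bind the letters CACGTG, the core of the CLEAR element of lysosomal genes. RefSeq promoter windows (GRCh38.p14, from 250 bases before to 50 after the gene's start) were at hand for 36 of the 42 genes, and not for RB1CC1, LAMP2, CTSB, HEXA, ATP6V1A and ATP6V1H. CACGTG, which reads the same on both strands, was found in 8 of the 36 windows (22.2%), against 7.43% of 27305 promoter windows of the same length. The 8 are ATG3, ATG14, CD63, LAMP1, MCOLN1, CTSA, CTSD and ATP6V0D1. The 27305 windows were not limited to expressed genes or matched for GC content, so these shares are not of like windows. Among genes higher than control with SFN+5-FU it was found in 4 of 18 windows, and among genes lower than control in 1 of 6. Shown are stretches of 5 of these windows, chosen because their genes rose (MCOLN1, LAMP1, ATG3), fell (CTSD) or were not called (CTSA) with SFN+5-FU while holding the same letters. Each reads 5′ to 3′ on the gene's strand, with CACGTG in capitals.
MCOLN1, chr19:7522564-7522623, plus strand: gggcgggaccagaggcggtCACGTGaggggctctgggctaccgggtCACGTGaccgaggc
LAMP1, chr13:113297039-113297118, plus strand: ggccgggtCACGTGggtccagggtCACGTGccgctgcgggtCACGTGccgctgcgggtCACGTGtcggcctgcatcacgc
ATG3, chr3:112561963-112562022, minus strand: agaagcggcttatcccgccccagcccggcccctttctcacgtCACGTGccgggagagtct
CTSD, chr11:1763928-1763987, minus strand: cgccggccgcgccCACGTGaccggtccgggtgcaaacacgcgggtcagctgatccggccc
CTSA, chr20:45891275-45891334, plus strand: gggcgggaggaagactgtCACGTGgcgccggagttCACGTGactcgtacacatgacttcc
The LAMP1 stretch lies 200 to 121 bases before the start and the other stretches end 1 base before it. Sulforaphane is known to activate NRF2, and the core of the NRF2 element, TGACNNNGC on either strand, was found in 9 of the 36 windows (25.0%), against 13.6% of all windows. The windows behind these shares were not matched either. In LAMP1 a match to the NRF2 core overlapped a CACGTG. A match describes letters only, and binding was not measured.

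**Figure D4:**
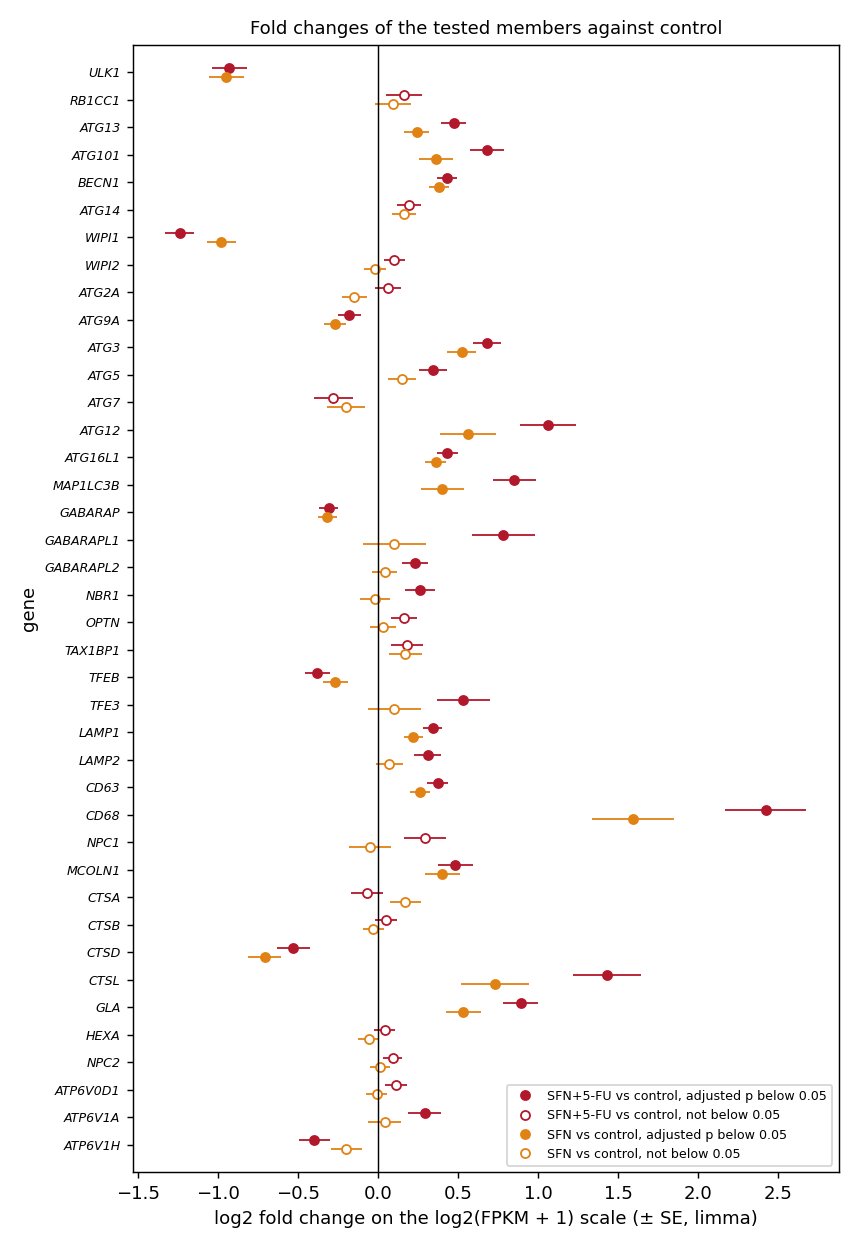
Log2 fold change on the log2(FPKM + 1) scale (± SE, limma) of the 40 tested genes, with SFN+5-FU against control above SFN against control for each gene. Filled points have an adjusted p below 0.05: 27 genes with SFN+5-FU and 19 with SFN, with WIPI1 (-1.24 with SFN+5-FU and -0.98 with SFN) and ULK1 (-0.93 with SFN+5-FU and -0.95 with SFN) farthest to the left. CD68, at the right, passed the filter through its treated values, and its filled points are calls of the filtered fit.

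Of the 6 genes of lysosomal membrane proteins, 5 rose with SFN+5-FU (83.3%, against 38.3% higher and 28.0% lower among all tested genes). With SFN 4 rose (66.7%, against 27.5% higher and 22.5% lower), and none fell in either comparison. No test was run on this small set, and both counts include CD68, which passed the filter through its treated values alone. CD63, a tetraspanin of late endosomes and lysosomes and the most abundant mRNA of the 42 genes, was at 183.62, 190.23 and 211.54 FPKM in SFN+5-FU cells and at 177.35, 187.14 and 175.79 FPKM in SFN cells, against 151.12, 148.09 and 152.23 FPKM in control cells. Both treated groups lay above control. CD63 rose by 0.37 with SFN+5-FU (adjusted p = 0.000908) and by 0.26 with SFN (adjusted p = 0.00930, and 0.0720 with quantile normalization). LAMP1, the major glycoprotein of the lysosomal membrane, averaged 64.4 ± 1.55 FPKM with SFN+5-FU and 59.2 ± 3.35 FPKM with SFN, against 50.7 ± 1.52 FPKM in control. It rose by 0.34 with SFN+5-FU (adjusted p = 0.000972) and by 0.22 with SFN (adjusted p = 0.0142), where the call was lost with median-of-ratios scaling (0.0647) and quantile normalization (0.0844). LAMP2, its partner in that membrane, rose with SFN+5-FU (0.31, adjusted p = 0.00961, and 0.0968 with quantile normalization), with 20.7 ± 1.07 FPKM in SFN+5-FU cells, 17.4 ± 2.08 FPKM in SFN cells and 16.5 ± 0.386 FPKM in control cells.

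MCOLN1, the lysosomal calcium channel TRPML1, averaged 5.65 ± 0.839 FPKM with SFN+5-FU and 5.30 ± 0.636 FPKM with SFN, against 3.75 ± 0.188 FPKM in control. It rose by 0.48 with SFN+5-FU (adjusted p = 0.00386) and by 0.40 with SFN (adjusted p = 0.0131), and SFN replicate 2, at 5.00 FPKM, lay between the other SFN libraries. NPC1, which exports cholesterol from the lysosome, was at 14.59, 14.78 and 14.29 FPKM in SFN+5-FU cells and at 9.51, 14.64 and 10.16 FPKM in SFN cells, against 11.31, 11.58 and 12.20 FPKM in control cells. SFN replicate 2 was inside the SFN+5-FU range, while SFN replicates 1 and 3 were below all control libraries. NPC1 was not called (0.29 with SFN+5-FU, adjusted p = 0.0726, and -0.05 with SFN). Without SFN replicate 2 it was called higher with SFN+5-FU (adjusted p = 0.000532, and 0.0467 without SFN replicate 1) and lower with SFN (-0.23, adjusted p = 0.00674). RMC1, which overlaps NPC1 on the opposite strand, stood at 20.3 ± 0.265 FPKM with SFN+5-FU and 15.0 ± 3.68 FPKM with SFN, with SFN replicate 2 at 19.14 FPKM, against 12.1 ± 0.427 FPKM in control. Its part in the NPC1 values was not tested.

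CD68, a lysosomal glycoprotein best known from macrophages, was higher after both treatments. It was at 8.96, 7.92 and 5.59 FPKM in SFN+5-FU cells and at 2.05, 5.57 and 4.23 FPKM in SFN cells, against 0.60, 0.61 and 0.48 FPKM in control cells. The treated libraries did not overlap control, and the gene passed the filter through its treated values alone. Its filtered p-values are therefore not printed here, but its filtered calls are included in the counts of called genes and of promoter windows. The mean with SFN+5-FU was 13.3 times that in control and the mean with SFN 7.01 times. With all genes above 0 in the limma fit, CD68 rose by 2.42 with SFN+5-FU (adjusted p = 0.000424) and by 1.59 with SFN (adjusted p = 0.00443). Without SFN replicate 2 its fold change with SFN was 1.35. Of 10 macrophage markers, PTPRC and AIF1 were at 0 in all 9 libraries, and CD163, TYROBP, MRC1 and FCGR3A were at 0.08 FPKM or below. CD14 was at 0.86 to 1.62 FPKM in treated libraries and 1.63 to 1.98 FPKM in control. LYZ was at 0.76 to 3.48 FPKM and 2.32 to 2.87 FPKM, respectively. ITGAM was at 0.12 to 0.25 FPKM in treated libraries and 0.07 to 0.11 FPKM in control. CSF1R was at 0.08 to 0.18 FPKM and 0.06 to 0.08 FPKM, respectively. The summed FPKM of the 10 was 2.35 to 2.94 with SFN+5-FU, 3.02 to 5.43 with SFN and 4.27 to 4.93 in control. A readthrough transcript that shares the strand and sequence of CD68 was listed at 7.97, 10.11 and 21.32 FPKM in SFN+5-FU cells and at 16.72, 18.29 and 7.73 FPKM in SFN cells, against 8.32, 8.73 and 9.16 FPKM in control cells. How reads were divided between it and CD68 is not stated, and its part in the CD68 values was not tested.

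Among genes of the lysosomal lumen, CTSL and GLA were higher and CTSD was lower after both treatments. CTSL, which encodes the cysteine protease cathepsin L, was at 17.76, 19.98 and 20.16 FPKM in SFN+5-FU cells and at 8.65, 17.87 and 9.55 FPKM in SFN cells, against 6.31, 6.24 and 6.98 FPKM in control cells. All treated libraries were above control, with SFN replicate 2 in the SFN+5-FU range. The SFN+5-FU mean was 2.96 times that in control, a log2 fold change of 1.43 (SE 0.212, adjusted p = 0.000372). With SFN it rose by 0.73 (SE 0.212, adjusted p = 0.0184), and by 0.43 without SFN replicate 2. The SFN call was lost without control replicate 1 (adjusted p = 0.0550) or 2 (0.0559).

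GLA, the alpha-galactosidase A that is deficient in Fabry disease, was at 23.06, 25.19 and 27.10 FPKM in SFN+5-FU cells and at 17.01, 23.27 and 18.17 FPKM in SFN cells, against 13.20, 12.66 and 13.25 FPKM in control cells. All 6 treated libraries were above control. GLA rose by 0.89 with SFN+5-FU (SE 0.110, adjusted p = 0.000140) and by 0.53 with SFN (SE 0.110, adjusted p = 0.00351), and by 0.40 without SFN replicate 2. CTSD, the aspartic protease cathepsin D, was at 86.83, 82.06 and 87.48 FPKM in SFN+5-FU cells and at 76.81, 86.99 and 64.46 FPKM in SFN cells, against 128.14, 131.30 and 113.45 FPKM in control cells. Each treated library was below the lowest control library. CTSD fell by 0.53 with SFN+5-FU (SE 0.105, adjusted p = 0.00177) and by 0.71 with SFN (SE 0.105, adjusted p = 0.000616). AC068580.4, a gene that shares the strand and 1304 exon bases of CTSD, averaged 1.13 FPKM with SFN+5-FU, 0.703 FPKM with SFN and 1.73 FPKM in control. Its part in the CTSD values was not tested.

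CTSA, a serine carboxypeptidase that also protects other lysosomal enzymes, was at 34.76, 35.63 and 37.59 FPKM in SFN+5-FU cells and at 46.47, 35.73 and 47.11 FPKM in SFN cells, against 38.54, 38.27 and 36.99 FPKM in control cells. SFN replicates 1 and 3 were above every other library, and SFN replicate 2 was with SFN+5-FU. CTSA was not called (-0.07 with SFN+5-FU and 0.17 with SFN), and without SFN replicate 2 it was called higher with SFN (0.30, adjusted p = 0.000927). CTSB, another cysteine protease, was not called at 71.2 ± 1.28 FPKM with SFN+5-FU, 67.3 ± 3.44 FPKM with SFN and 68.9 ± 4.89 FPKM in control. Within the summed FPKM of the 4 cathepsins, CTSD held 40.3 ± 1.05% with SFN+5-FU and 38.2 ± 3.17% with SFN, against 52.3 ± 0.802% in control. CTSL held 9.10 ± 0.569% with SFN+5-FU and 5.99 ± 2.19% with SFN, against 2.75 ± 0.355% in control. HEXA, a hexosaminidase subunit, and NPC2, the lumenal cholesterol carrier, were not called. HEXA averaged 4.72 ± 0.195 FPKM with SFN+5-FU, 4.33 ± 0.208 FPKM with SFN and 4.56 ± 0.0945 FPKM in control, and NPC2 averaged 51.9 ± 3.72 FPKM with SFN+5-FU, 48.9 ± 0.386 FPKM with SFN and 48.5 ± 0.257 FPKM in control.

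Of the 3 V-ATPase genes, limma called 1 higher and 1 lower with SFN+5-FU (66.7%, against 66.2% called among all tested genes). With SFN none was called, against 50.0% of all tested genes, and none had an unadjusted p below 0.05 either. ATP6V1A, the catalytic subunit of the pump, was at 19.58, 21.98 and 20.04 FPKM in SFN+5-FU cells and at 14.87, 20.01 and 16.55 FPKM in SFN cells, against 17.65, 15.46 and 16.56 FPKM in control cells. SFN+5-FU lay above control, and the SFN libraries surrounded it. ATP6V1A was called higher with SFN+5-FU (0.29, adjusted p = 0.0313), a call lost in 9 of 21 alternative settings, among them those without SFN+5-FU replicate 2 (adjusted p = 0.108) or 3 (0.0598) and without control replicate 2 (0.106) or 3 (0.0690). ATP6V1H, a regulatory subunit, fell by 0.40 with SFN+5-FU (SE 0.0971, adjusted p = 0.00545), with 5.71 ± 0.407 FPKM, against 7.84 ± 0.105 FPKM in control, and stood at 6.74 ± 1.01 FPKM with SFN, where it was called lower without SFN replicate 3 (-0.29, adjusted p = 0.0246). ATP6V0D1, of the membrane sector, was not called, at 11.8 ± 0.364 FPKM with SFN+5-FU, 10.8 ± 0.748 FPKM with SFN and 10.8 ± 0.324 FPKM in control.

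The comparison of SFN+5-FU with SFN sets the combination against sulforaphane, and an effect of 5-FU cannot be told apart from one of the sulforaphane dose, which is not stated for the combination. None of the 40 genes was called, against 0.00790% of all tested genes (a single gene), and the smallest adjusted p among the 40 was 0.134. At an unadjusted p below 0.05, limma gave 17 of the 40 genes (15 higher and 2 lower with SFN+5-FU), against 31.4% of all tested genes. With library weights in the same fit, 24 were higher and 5 lower, against 58.7% called among all tested genes (33.4% higher and 25.3% lower). SFN replicate 2 decided these counts: without it 21 genes were higher and 3 lower with SFN+5-FU, against 51.2% called among all tested genes (29.8% higher and 21.4% lower). The group then rests on SFN replicates 1 and 3.

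In that comparison without SFN replicate 2, the largest differences were in CD68, CTSL, GABARAPL1 and ATG12, all also higher than control with SFN+5-FU. Both comparisons use the same SFN+5-FU libraries, so this agreement is not separate evidence. SFN replicate 2 was singled out for its likeness to SFN+5-FU. Leaving it out widened these differences and narrowed the SFN spread on which the adjusted p-values rest. CD68 was higher by 1.07 on the log2 scale, CTSL by 1.01 (adjusted p = 3.09e-05), GABARAPL1 by 0.95 (adjusted p = 7.06e-05) and ATG12 by 0.72 (adjusted p = 0.000484). TFE3 and MAP1LC3B followed, with 0.66 (adjusted p = 9.01e-05) and 0.63 (adjusted p = 0.000111). The 3 lower genes were WIPI1 (-0.32), CTSA (-0.37) and ATP6V1H (-0.29). Whether the label of SFN replicate 2 or a difference within the SFN cultures underlies these counts was not tested.

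Other genes of the same pathways, in lists that exclude the 42, were mixed in direction. Of 29 further genes of the lysosomal lumen, 10 rose and 10 fell with SFN+5-FU (69.0% called, against 66.2% of all tested genes), and 4 rose and 13 fell with SFN (58.6%, against 50.0%). GAA, the acid alpha-glucosidase that breaks down glycogen, stood at 3.13 ± 0.0721 FPKM with SFN+5-FU and 4.98 ± 1.51 FPKM with SFN, against 10.6 ± 0.952 FPKM in control, and fell by 1.49 with SFN+5-FU and by 0.99 with SFN. FUCA1, a fucosidase, averaged 29.0 ± 1.59 FPKM with SFN+5-FU and 30.4 ± 1.73 FPKM with SFN, against 66.9 ± 1.38 FPKM in control, and also fell in both. The cathepsin gene CTSS rose with SFN (1.33, adjusted p = 0.00187, and 1.68 without SFN replicate 2), with 9.49, 4.56 and 11.44 FPKM in SFN cells. With SFN+5-FU its fold change was 0.56, not called with all libraries (adjusted p = 0.0661) and called without SFN replicate 2 (adjusted p = 0.000115). Of 14 further membrane proteins, 3 rose and 5 fell with SFN+5-FU (57.1%), and 2 rose and 3 fell with SFN (35.7%).

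Of 13 further V-ATPase subunits, 8 rose and 1 fell with SFN+5-FU (69.2% called, against 66.2% of all tested genes), and 6 rose and 1 fell with SFN (53.8%, against 50.0%). Their median log2 fold change was 0.37 with SFN+5-FU, where that of all tested genes was 0.10, and 0.24 with SFN, where that of all tested genes was 0.05. ATP6V1D averaged 33.3 ± 1.50 FPKM with SFN+5-FU and 27.4 ± 3.97 FPKM with SFN, against 16.8 ± 1.44 FPKM in control. Of 28 other autophagy genes, 9 rose and 4 fell with SFN+5-FU (46.4%), and 4 rose and 6 fell with SFN (35.7%). Genes of the proteases that process ATG8 proteins, ATG4A and ATG4B, rose by 0.90 and 0.89 with SFN+5-FU and had fold changes of 0.40 (adjusted p = 0.0874) and 0.38 (adjusted p = 0.0941) with SFN. Without SFN replicate 2 the fold changes with SFN were 0.15 for ATG4A and 0.14 for ATG4B. Of 11 other receptors, 4 rose and 2 fell with SFN+5-FU (54.5%), and 2 rose and 3 fell with SFN (45.5%). SQSTM1, the receptor p62 and also an NRF2 target, averaged 182 ± 10.7 FPKM with SFN+5-FU and 140 ± 26.4 FPKM with SFN, against 96.5 ± 4.27 FPKM in control. BNIP3L, a mitophagy receptor induced by hypoxia, averaged 16.2 ± 1.07 FPKM with SFN+5-FU and 23.1 ± 4.37 FPKM with SFN, against 42.4 ± 2.97 FPKM in control, and fell by 1.33 with SFN+5-FU and by 0.87 with SFN.

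Among 19 genes that control MiT/TFE factors or mTORC1 at the lysosome, 5 rose and 4 fell with SFN+5-FU (47.4% called, against 66.2% of all tested genes), and 2 rose and 4 fell with SFN (31.6%, against 50.0%). RRAGA, which encodes the RagA GTPase that brings mTORC1 to the lysosome, averaged 32.2 ± 0.550 FPKM with SFN+5-FU and 47.8 ± 12.7 FPKM with SFN, against 95.5 ± 4.75 FPKM in control. It fell by 1.54 with SFN+5-FU (SE 0.159, adjusted p = 5.79e-05) and by 1.02 with SFN (SE 0.159, adjusted p = 0.000818). RPTOR, which encodes the mTORC1 subunit raptor, fell by 0.73 with SFN+5-FU (adjusted p = 0.0150) and was at 4.84, 2.06 and 4.87 FPKM in SFN cells, a fold change of -0.08 (adjusted p = 0.771). Without SFN replicate 2 the direction with SFN turned and RPTOR was called higher (0.23, adjusted p = 0.0163). These are mRNA levels, and neither autophagic flux nor the activity or location of any factor was measured.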

How the data were processed

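Gene-level FPKM in 9 libraries of SW480 cells were used as deposited by the authors. Per the submitters' processing notes, fastp, StringTie and edgeR were used, without versions. Neither aligner nor build nor annotation is given in the sources used here. Per the labels' protocols, libraries were paired-end with dUTP strand marking after poly(A) selection. FPKM carries no depth: the smallest value above 0 was 0.01 in the table.

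Of 41041 identifiers, 41002 matched the name table. The filter, a mean of 1 FPKM, kept 12662 genes. Log2(FPKM + 1) of all 9 libraries entered 1 limma fit with trend (residual degrees of freedom 6, prior 3.20) and 3 contrasts. P-values were two-sided and adjusted by the Benjamini-Hochberg method over all tested genes of a contrast. Both comparisons with control share the control libraries. The fit was checked on simulated data with independent noise in each library. That check does not cover an outlying library such as SFN replicate 2.

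The members and lists were chosen by symbol with earlier results of these data known. Values in every library are given for MiT/TFE factors, for members called with a log2 fold change of at least 0.5 in size, and for the most abundant member of each role. Values for NPC1 and CTSA were added after they were seen. From each further list, the 2 called genes with the largest change per comparison could be named. A gene that this rule would name is not reported here. The alternatives were other filters, pseudocounts and scalings, other variance models, a replicate block, fewer libraries, and a correction for GC and length (GENCODE release 29, 98.8% of tested genes). Promoter windows came from RefSeq (GRCh38.p14). Software was R 4.3.3, limma 3.58.1 and Python 3.11.15 (pandas 2.3.3, matplotlib 3.10.9).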

Additional observations from a re-analysis of the deposited data

How the results depend on the processing

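None of the 40 tested genes changed direction under any alternative run (a sign change was counted only where the gene was called in either setting). RPTOR, outside the 40, did so with SFN, as given above. With SFN the count of higher genes was 8 with no expression filter (against 8.99% of all genes, most of them below the filter). It was 8 to 15 when 1 library was left out (8 without control replicate 1 or 2), and the count of lower genes was 10 with library weights. Shares over all tested genes are not given here for every run, so these counts show only how far the calls depend on the processing. The median of the 40 genes with SFN was -0.03 with quantile normalization and -0.02 to 0.13 when 1 library was left out. The median with SFN+5-FU was 0.14 with median-of-ratios scaling, where that of all genes was 0.00, and 0.13 with quantile normalization. For SFN+5-FU against SFN, library weights gave 24 higher and 5 lower, against 58.7% called among all tested genes. Leaving out 1 library gave 0 to 21 higher and 0 to 3 lower, the upper values without SFN replicate 2, against 51.2% called among all tested genes there. Replicate numbers showed no clear pairing in deviations from the group means. Of 9 same-number pairs, 1 correlated above 0.1 (range -0.143 to 0.107), and a library correlated best with its own number in 6 of 18 cases. With 3 libraries per group and SFN replicate 2 apart from its group, this check cannot exclude shared cultures or batches. With the number as a replicate block the counts were 13 higher and 6 lower with SFN, 19 and 6 with SFN+5-FU (ATG9A and GABARAPL2 lost), and 0 and 0 between the treatments. Low genes such as ULK2, MITF and TFEB are limited by the unknown depth.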
